A study of Mus musculus and Homo sapiens with 22 samples.

Results

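MDA-MB-231 cells treated with 2.5 µM ENMD-2076 were compared with cells given DMSO, over all genes. MDA-MB-231 is an established human line of triple-negative breast cancer, which lacks the oestrogen and progesterone receptors and HER2 amplification. The comparison holds 4 libraries, 2 labelled 2.5 µM ENMD-2076 and 2 labelled DMSO, chosen by compound and dose as labelled. They are 4 of the 10 libraries of this line and of the 22 in the series. The other 6 MDA-MB-231 libraries are 2 each of 5 µM ENMD-2076, 1 µM TAK901 and 2 µM TAK901. All were plated for 24 h, then treated for 24 h, and they share 1 DMSO group. The labels do not say that the 2 libraries of a group came from separate cultures, so the spread behind each p is that of the sequenced libraries and may be technical. RNA was from bulk cultures, in which fewer cells of a kind and less RNA per cell cannot be told apart.

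ENMD-2076 is known as an inhibitor of Aurora A and of several receptor tyrosine kinases, and TAK901 as an inhibitor of Aurora A and Aurora B. Aurora A acts at centrosomes and drives entry into mitosis and assembly of the spindle. Aurora B acts at the inner centromere, where it corrects wrong attachments of chromosomes to the spindle, and later in cytokinesis. When these kinases are blocked, dividing cells are known to arrest in mitosis or to leave it without dividing. The question here was which genes differed from DMSO at the lower of the 2 doses of ENMD-2076.

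The counts are listed by human Ensembl gene ID, and the files do not pair these IDs with gene names. No human name table was used here, and the mouse table at hand matched 0 of the 42713 IDs. Genes are therefore given by ID, with at most 2 that rose and 2 that fell, and their functions and positions were not analysed here. For the same reason the cell line was not checked against its markers.

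Gene counts summed to 13.40 and 16.02 M reads in the DMSO libraries and to 23.99 and 13.75 M reads at 2.5 µM. Across the 10 MDA-MB-231 libraries totals ran from 13.4 to 24.0 M reads, 17897 to 19740 genes had a read, and TMM scaling factors ran from 0.951 to 1.05. The spread between the 2 libraries of a group is given as the coefficient of variation between them over genes, beyond counting error. This spread was 6.95% at 2.5 µM ENMD-2076, 7.45% at 5 µM, 10.9% with 1 µM TAK901 and 11.2% with DMSO. With 2 µM TAK901 it was 23.3%, above that of every other group. A library of 2.5 µM ENMD-2076 differed from a DMSO library by 14.8 to 16.2% over the 4 possible pairs. The 2 TAK901 libraries at 2 µM thus differed more from each other than any ENMD-2076 library at 2.5 µM did from any DMSO library. All 10 libraries give the spread in the test, so this pair enters it although neither library belongs to the comparison.

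**Figure D1:**
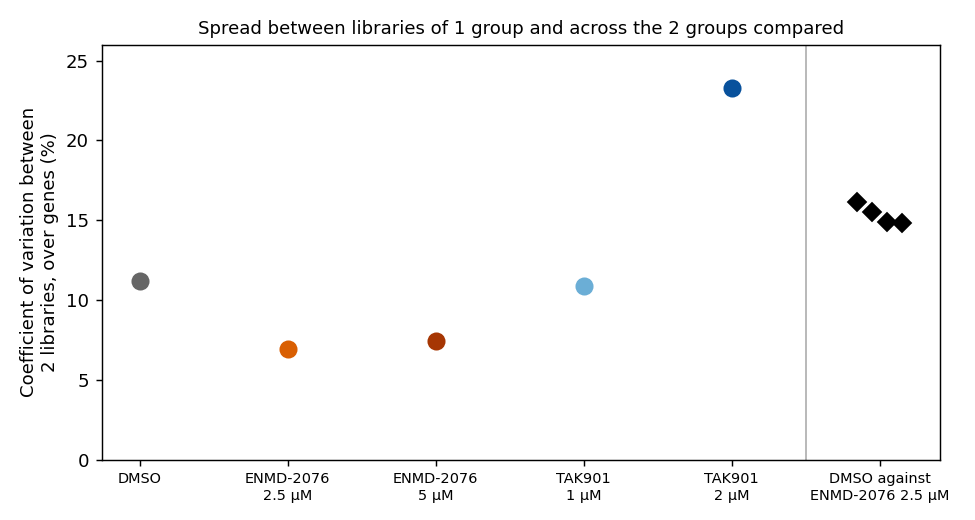
Coefficient of variation (%) between 2 libraries over genes, for the 2 libraries of each MDA-MB-231 group (circles) and for the 4 pairs of a DMSO and a 2.5 µM ENMD-2076 library (diamonds). The 2 µM TAK901 pair stands at 23.3%, above the 14.8 to 16.2% between the groups compared.

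With the spread from all 10 libraries, 77 of 14826 tested genes rose at 2.5 µM and 13 fell, which is 0.519% and 0.0877% of the genes tested (edgeR quasi-likelihood test, Benjamini-Hochberg adjusted p under 0.05). Of these, 32 rose and 1 fell by more than 2-fold. The median log2 fold change was 0.90 for the genes that rose and -0.57 for those that fell, against -0.003 over all genes tested. Before adjustment 1773 genes had p under 0.05, of which 972 were higher and 801 lower. Higher genes made up 85.6% of the adjusted calls.

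The number of genes called depended on which libraries gave the spread. With the 8 libraries that leave out both 2 µM TAK901 libraries, 468 genes were higher and 485 lower, 3.24% and 3.35% of 14460 tested. With only the 4 libraries compared, 401 were higher and 412 lower, 2.94% and 3.02% of 13650 tested. Higher genes were then 49.1% and 49.3% of the calls. Among these 3 fits, rises made up most of all calls only where the 2 µM TAK901 libraries entered the spread. Past 2-fold, called rises outnumbered called falls in all 3 fits. They were 32 and 1 with 10 libraries, 80 and 10 with 8, and 64 and 9 with 4. The coefficient of variation estimated in the fit was 13.7% with 10 libraries, 9.27% with 8 and 9.12% with 4. The median SE of a log2 fold change was 0.192, 0.156 and 0.149 in the same order. The prior degrees of freedom, the weight of the spread shared over genes, were 8.92 with 10 libraries, 26.8 with 8 and 20.5 with 4. How much each of these changed the number of calls was not tested. Leaving out either 2 µM TAK901 library alone gave 966 or 948 calls. Leaving out both 1 µM TAK901 libraries gave 41.

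All 90 genes called with 10 libraries were also called with 8 and with 4. The fold change comes from the same 4 libraries in each of these fits, and the other libraries act mainly on the spread, so a shared direction is given by construction and is no further evidence. The calls made with 4 and with 8 libraries shared 805 genes, which is 99.0% of the 813 and 84.5% of the 953. A further 723 genes were called with 4 libraries but not with 10, 324 higher and 399 lower. Their changes were small, with a median size of 0.43 on the log2 scale, and 562 of them did not pass 1.5-fold. Their adjusted p with 10 libraries had a median of 0.211 and a highest value of 0.643, and 335 were under 0.2.

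**Figure D2:**
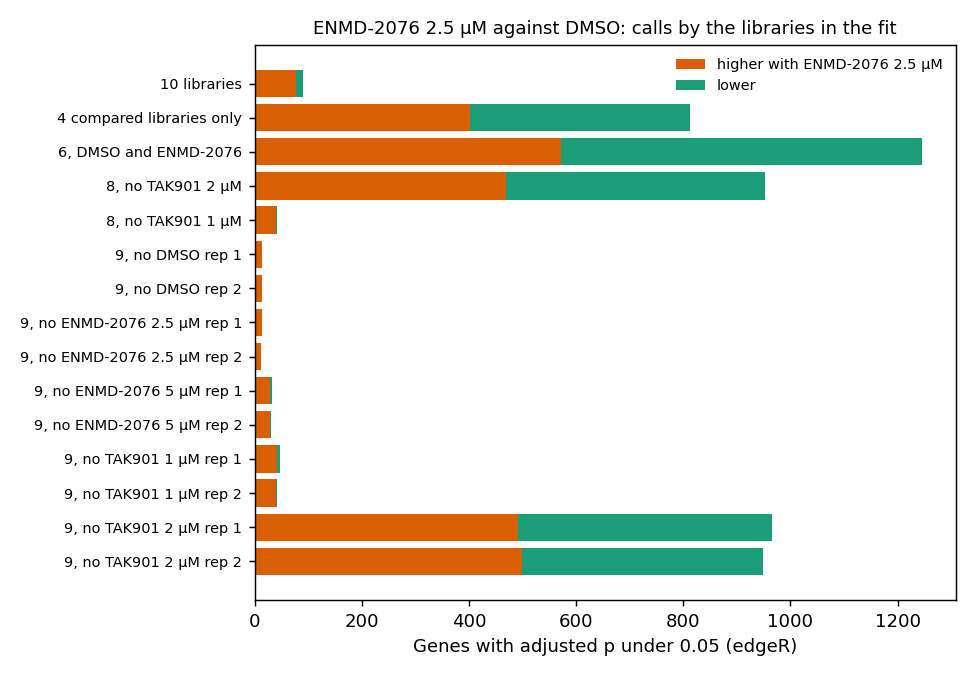
Number of genes past the threshold for 2.5 µM ENMD-2076 against DMSO, higher and lower, by the libraries that entered the edgeR fit. Calls numbered 90 with 10 libraries, 813 with the 4 compared and 966 or 948 once a 2 µM TAK901 library was left out.

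The 90 calls also rested on every one of the 4 libraries compared. Without DMSO replicate 1 or 2 there were 14 calls, without 2.5 µM replicate 1 there were 14, and without replicate 2 there were 11. Not one of these was lower. Removing 1 library of 5 µM ENMD-2076 left 31 or 30 calls, and removing 1 of 1 µM TAK901 left 46 or 42. A group left with 1 library is assumed to vary like the other groups.

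The genes called lower stood at higher levels than the typical tested gene. Small changes are called more readily at high counts, and whether that accounts for the levels of these genes was not tested. Mean levels over the 10 libraries, as TMM-normalised CPM (counts scaled to library size but not to gene length), ran from 50.6 to 209 in the 13 that fell, with a median of 107. They ran from 1.01 to 737 in the 77 that rose, with a median of 47.9, and 10 of these were under 10 CPM. The median over all tested genes was 22.6 CPM. The smallest change called was 0.51 on the log2 scale with 10 libraries and 0.23 with 4.

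**Figure D3:**
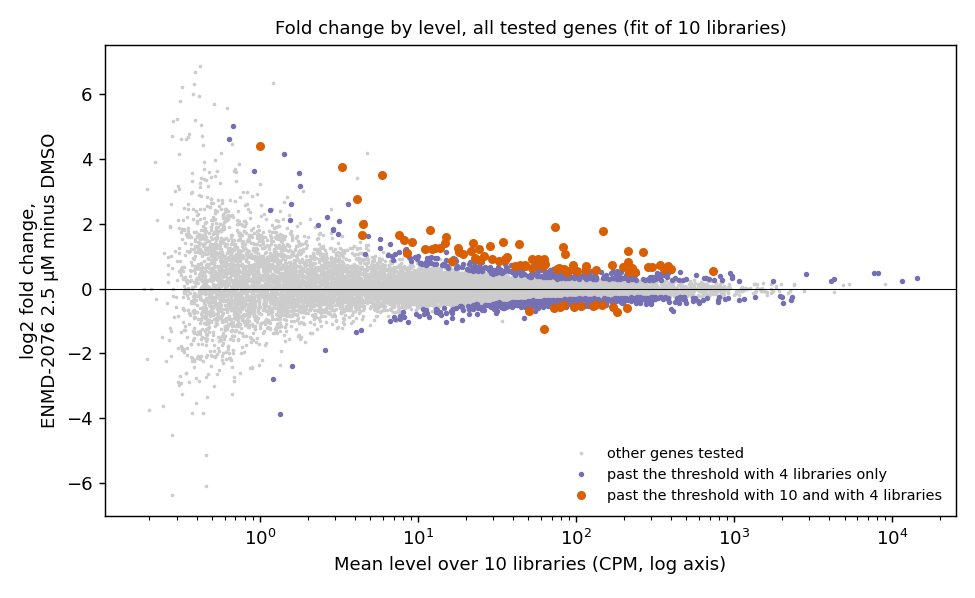
Log2 fold change of 2.5 µM ENMD-2076 against DMSO (fit of 10 libraries) by mean level in CPM on a log axis, for 14826 genes. Genes called with 10 and with 4 libraries lie at 0.51 or more from 0, and many called with 4 libraries only lie nearer to 0.

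Among the genes called with 10, 8 and 4 libraries alike, ENSG00000130477.10 had the largest rise and was nearly unread in DMSO. It had 1 read in each DMSO library, or 0.0754 and 0.0632 CPM, and 35 and 24 reads at 2.5 µM, or 1.45 and 1.77 CPM. The groups did not overlap, and the ratio of pooled levels was 23.0 (95% interval 6.09 to 194, counting error only). Its fitted log2 fold change was 4.39 (SE 0.86, edgeR adjusted p = 0.0366), and this fold depends on the prior count because DMSO held so few reads. The adjusted p was 0.00478 with 8 libraries and 0.00748 with 4. The call was lost without any 1 of the DMSO, ENMD-2076 or 1 µM TAK901 libraries, with adjusted p from 0.0690 to 0.301. At the other treatments its level lay between 0.833 and 1.47 CPM, above both DMSO libraries in all 6.

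ENSG00000124491.11 had the second largest rise among the genes called in all 3 of these fits. It stood at 0.452 and 0.126 CPM in DMSO (6 and 2 reads) and at 2.28 and 5.52 CPM at 2.5 µM (55 and 75 reads). The 2 treated libraries differed from each other more than 2-fold, yet both lay above DMSO. Its log2 fold change was 3.74 (SE 0.63, edgeR adjusted p = 0.0183 with 10 libraries, 1.13e-04 with 8 and 0.00193 with 4). Leaving out DMSO replicate 1 or 2 gave an adjusted p of 0.101 or 0.261, and leaving out 2.5 µM replicate 2 gave 0.186. Levels were 6.17 and 7.03 CPM at 5 µM and between 1.87 and 3.62 CPM with TAK901.

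Among the 13 genes called lower with 10 libraries, ENSG00000265150.1 changed most. Its level was 148 and 114 CPM in DMSO and 52.1 and 57.5 CPM at 2.5 µM, or 131 ± 24.2 and 54.8 ± 3.88 CPM (mean ± SD, n = 2). It was the only one of the 13 to fall by more than 2-fold, with a log2 fold change of -1.25 (SE 0.20, edgeR adjusted p = 0.0164 with 10 libraries, 5.44e-07 with 8 and 2.36e-07 with 4). The call was lost without any 1 of the 4 libraries compared (adjusted p 0.0638 to 0.219). All 8 treated libraries, at 30.8 to 57.5 CPM, lay below both DMSO libraries.

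ENSG00000171848.9 fell from 338 and 353 CPM in DMSO to 216 and 202 CPM at 2.5 µM. The means were 345 ± 10.9 and 209 ± 9.94 CPM (SD, n = 2), and the log2 fold change was -0.72 (SE 0.11, edgeR adjusted p = 0.00833 with 10 libraries, 3.14e-07 with 8 and 4.75e-06 with 4). Without 1 of the 4 libraries compared the adjusted p was 0.0707 to 0.249. This gene stood lower with TAK901, at 90.2 and 98.8 CPM with 1 µM and 77.4 and 73.3 CPM with 2 µM. Its level at 2.5 µM ENMD-2076 was higher than at 1 µM TAK901 by 1.15 on the log2 scale (adjusted p = 9.69e-05).

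**Figure D4:**
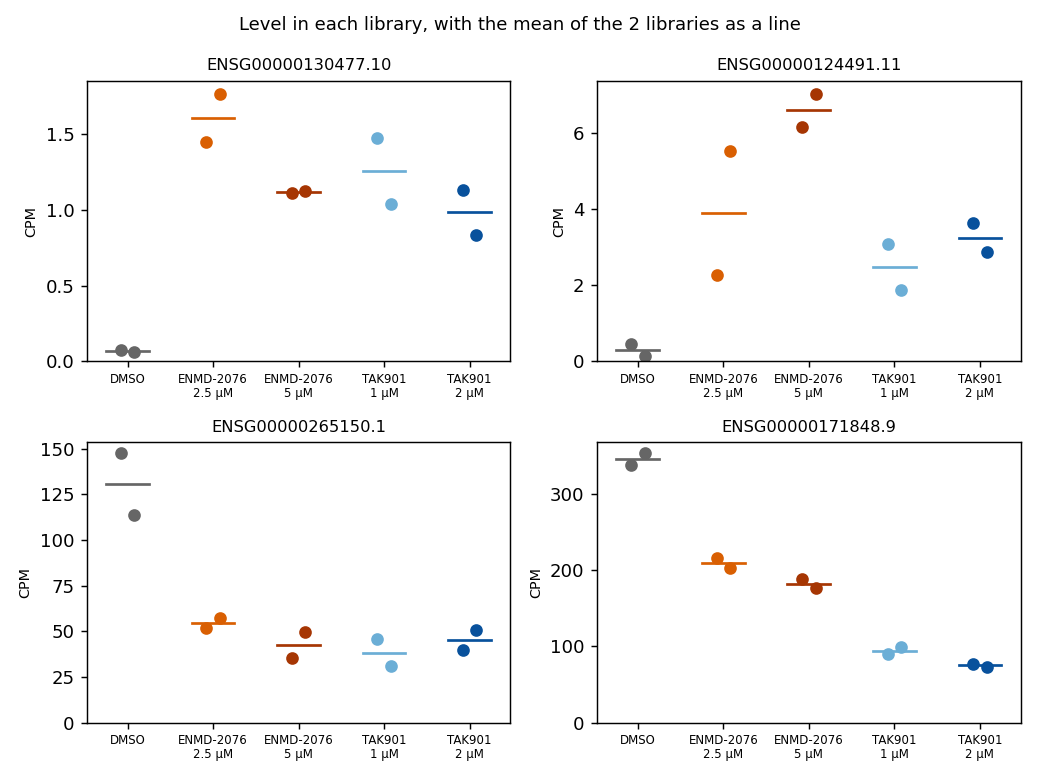
Level in CPM of the 4 genes described, in each of the 10 MDA-MB-231 libraries (points), with the mean of the 2 libraries of a group as a line. In each panel both 2.5 µM ENMD-2076 libraries lie on 1 side of both DMSO libraries, and ENSG00000171848.9 is lowest with TAK901.

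The same 90 genes were followed in the other treatments, in the fit of 10 libraries. Every contrast with DMSO shares the 2 DMSO libraries that helped to choose these genes, so the values are set side by side and not tested against each other. The 77 genes that rose had a median log2 fold change of 0.90 at 2.5 µM and 0.97 at 5 µM, where 74 were called higher and 0 lower. Of all 14826 tested genes 2.7% were called higher and 2.19% lower at 5 µM. With 1 µM TAK901 their median was 0.40, with 36 called higher, 4 lower and 37 not called, over a range of -0.999 to 4.04, beside 6.46% of all genes higher and 7.47% lower. With 2 µM TAK901 it was 0.44, with 41 higher, 11 lower and 25 not called, over a range of -1.40 to 3.69, beside 15.2% of all genes higher and 16% lower. Because the DMSO libraries are shared, nothing about these genes is read from the counts against those shares. The 13 genes that fell were called lower in all 4 treatments. Their medians were -0.57 at 2.5 µM ENMD-2076, -0.83 at 5 µM, -0.93 with 1 µM TAK901 and -1.34 with 2 µM.

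**Figure D5:**
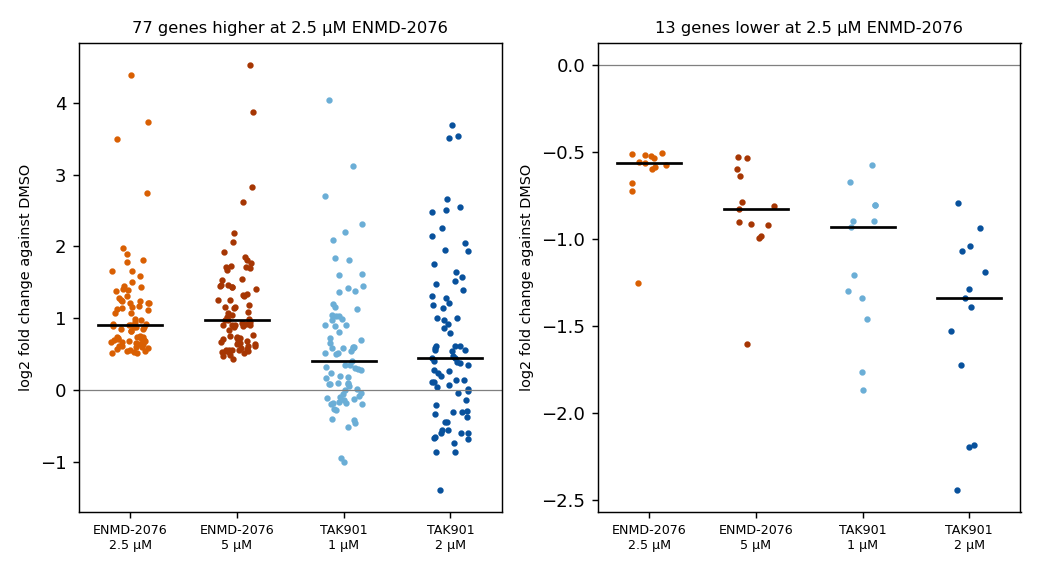
Log2 fold change against DMSO in each of the 4 treatments (fit of 10 libraries), for the 77 genes higher and the 13 lower at 2.5 µM ENMD-2076, 1 point a gene with the median as a line. The 77 genes have medians of 0.90 and 0.97 with ENMD-2076 and spread to both sides of 0 with TAK901, whereas the 13 are below 0 in every treatment.

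The 2 doses of ENMD-2076 were compared directly, without DMSO in the contrast. With 10 libraries 2 genes differed, 0.0135% of those tested (804 at an unadjusted p under 0.05, and 7 by DESeq2), and 0 of the 90 were among them. The 2 genes, named after their values were seen, are ENSG00000227234.1, with 3 and 2 reads at 2.5 µM and 317 and 568 at 5 µM (edgeR adjusted p = 1.30e-05), and ENSG00000164283.8, with 184 and 188 CPM at 2.5 µM and 112 and 105 at 5 µM (adjusted p = 0.0406). The latter call, the only lower one, was lost with total count scaling and without any 1 library of DMSO, ENMD-2076 or 1 µM TAK901, where 0 genes were lower at 5 µM. ENSG00000227234.1 had 0 reads in both DMSO libraries and 0 or 1 in each TAK901 library. The 77 genes had a median difference of 0.01 between 5 and 2.5 µM on the log2 scale (range -0.66 to 0.97), and the 13 had -0.29 (range -0.42 to 0.06). With only the 4 ENMD-2076 libraries, 11 of the 77 were higher at 5 µM and 2 lower, and 8 of the 13 were lower, against 2.35% higher and 2.61% lower of all 14262 genes tested. With the 8 libraries that leave out 2 µM TAK901, 5 of the 77 were higher and 0 lower, and 2 of the 13 were lower. Of all genes tested 0.249% were then higher at 5 µM and 0.159% lower. The genes were chosen with the same 2.5 µM libraries, so these counts are a description.

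ENMD-2076 at 2.5 µM was also compared directly with TAK901 at 1 µM, the lower dose of each compound. The doses differ, so the difference is between these 2 treatments and not between matched compounds. Over all genes 359 were higher with ENMD-2076 and 215 lower, 2.42% and 1.45% of those tested with 10 libraries (edgeR adjusted p under 0.05). Among the 77 genes, 32 were higher with ENMD-2076, 6 were lower and 39 were not called, with a median difference of 0.40 on the log2 scale. Among the 13 genes, 5 were higher with ENMD-2076 and 0 lower, with a median of 0.36. With the 8 libraries that leave out 2 µM TAK901, 42 of the 77 were higher and 11 lower, and 11 of the 13 were higher, beside 8.14% and 5.61% of all genes. These counts too rest on the 2.5 µM libraries that chose the genes.

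Cell-cycle genes could be counted by ID through the classifier of the scran package, which is built on gene pairs whose order of level differs by phase. A listed gene comes first in a pair for just 1 phase, which need not be the phase where its level peaks. Of 43 tested genes of the G2M list, the phase just before and during division, 2 rose and 0 fell at 2.5 µM with 10 libraries, beside 0.519% and 0.0877% of all genes tested. Their median log2 fold change was -0.06, from -0.90 to 1.08, and 28 of the 43 were below 0, beside 7480 of all 14826. With only the 4 libraries compared 4 of 43 rose and 5 fell, beside 2.94% and 3.02% of all genes, the shares that also stand behind the counts with 4 libraries for the other lists. Of 22 tested genes of the G1 list 0 passed in either direction with 10 libraries, and 1 rose and 4 fell of 22 with 4. Their median was 0.01, from -0.45 to 0.27. Of 29 tested genes of the S list, the phase of DNA synthesis, 0 passed with 10 libraries, and 4 rose and 3 fell of 27 tested with 4. Their median was 0.06, from -2.15 to 2.03.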

How the data were processed

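RNA of MDA-MB-231 cells was sequenced in 10 libraries, with the values deposited by the authors as raw counts, 1 table a library. Per the submitters' processing notes, HTSeq, TopHat, Bowtie, DESeq2 and FastQC 0.11.3 were used, with hg38 listed among the builds. Neither the annotation nor whether counting used strand is stated in what was read here, which leaves counts of overlapping, antisense or near-identical genes uncertain. The 4T1 libraries were not used.

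Genes were filtered with filterByExpr, scaled by TMM and tested with edgeR 4.0.16 under R 4.3.3 by a quasi-likelihood fit of 5 groups over 10 libraries. Tests were two-sided, with Benjamini-Hochberg adjustment over 14826 genes and a threshold of 0.05. SE is the absolute log2 fold change divided by the root of its F statistic. Alternatives were other sets of libraries, DESeq2 1.42.0, other scalings and filters, a replicate block and leaving out each library. The code was tested on simulated counts. Every pair of libraries differed beyond counting noise, by a chi-square of 4.44 to 56.4 per degree of freedom inside a group and 7.53 to 115 across groups. Intervals of ratios cover counting error only.

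The comparison and the lists were chosen with earlier results of these data known. The rule for named genes took the largest rises and falls called with 10, 8 and 4 libraries that have a symbol, plus fixed symbols. Without a human name table it was applied without the symbol, to 2 rises and 2 falls, and the pathway and marker lists were not used. The 2 genes called between the ENMD-2076 doses were named outside this rule, after their values were seen. The comparison with TAK901 and the cell-cycle ID lists (scran 1.30.0, genes that come first in a classifier pair for just 1 phase) were chosen after seeing the data.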

Additional observations from a re-analysis of the deposited data

How the results depend on the processing

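Calls for 2.5 µM ENMD-2076 against DMSO numbered 90 in the reported fit. They were 813 with the 4 libraries compared, 953 without 2 µM TAK901, 41 without 1 µM TAK901, 1246 with the 6 libraries of DMSO and ENMD-2076, 232 by DESeq2 with 10 libraries (164 higher, 68 lower), 773 by DESeq2 with 4 and 266 without a count filter (204 higher, 62 lower). Other scalings gave 89 (DESeq2 size factors) and 65 (total counts, 62 higher and 3 lower), and a filter of 10 reads in 4 libraries gave 88. Leaving out 1 library in turn gave 11 to 966. The 2 calls between 5 and 2.5 µM became 707 with only those 4 libraries, 59 without 2 µM TAK901, 7 by DESeq2, 1 with total counts, 14 without a filter and 1 to 64 with 1 library left out. The 574 calls between 2.5 µM ENMD-2076 and 1 µM TAK901 became 2004 with only those 4 libraries, 1988 without 2 µM TAK901, 891 without a filter and 99 to 2008 with 1 library left out. The spread estimated in the fit and its prior degrees of freedom moved with the libraries used, and the cause of the other changes was not tested. The 4 genes described kept their direction in every alternative that gave an adjusted p. Their fold change came from the libraries that chose them, with both treated libraries on 1 side of both DMSO libraries. The direction was thus given by construction and is no further evidence. DESeq2 gave no adjusted p for ENSG00000130477.10 with 10 or 4 libraries, nor for ENSG00000124491.11 with 4. ENSG00000130477.10 also lost its call without 1 µM TAK901 (adjusted p = 0.0694).

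Deviations from the group means correlated from -0.0213 to 0.106 between same-numbered libraries, and at 0.0299 for DMSO with 2.5 µM ENMD-2076. This check runs over all tested genes, many with few reads, so a low correlation cannot show that the libraries were not paired. With the replicate block there were 106 calls (91 higher, 15 lower) with 10 libraries and 673 (354 higher, 319 lower) with the 4 compared. The block gave 2 calls between the ENMD-2076 doses and 673 against 1 µM TAK901.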
